A study of Homo sapiens with 12 samples.

Results

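The mRNA levels of SR proteins, hnRNP proteins and their partners in pre-mRNA splicing were followed in HK2 cells, an immortalized human proximal tubular epithelial line, exposed to TNF-α and to the short chain fatty acids (SCFAs) propionate and butyrate. The members were taken by gene symbol: the 12 genes named SRSF and a number, the 25 named HNRNP and letters with or without digits, processed pseudogenes left out, and TRA2A, TRA2B, SF3B1, U2AF1, U2AF2, PTBP1, PTBP2, RBFOX2, MBNL1, MBNL2, CELF1, CLK1 and CLK4. These were 50 of the 58278 genes listed, and 46 of the 24342 genes that passed the filter on low counts. HNRNPCL1, HNRNPCL2, HNRNPCL3 and HNRNPCL4 did not pass it, and the highest value of these in any library was 0.0687 CPM. HNRNPCL2 and HNRNPCL3 had no count in any of the 12 libraries, which allows up to 0.112 CPM (3 counts) in the library with the highest limit.

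There were 6 groups of 2 libraries. Untreated cells formed the Ctrl group, and cells kept with 5 ng/mL TNF-α for 3 h the TN group. PRTN and BUTN cells received propionate at 15 mM or butyrate at 3 mM for 24 h and then the same TNF-α, whereas TNPR and TNBU cells received the TNF-α first and the SCFA for 24 h afterwards. The labels share a treatment paragraph on thapsigargin and JQ1, but each library's own label gives TNF-α and the SCFA, and these were followed. All SCFA groups also carried TNF-α, no group with an SCFA alone was analysed here, and no group kept for 24 h after TNF-α without an SCFA, so in TNPR and TNBU the SCFA and the added time cannot be told apart. The study describes the pairs as biological replicates of 1 cell line, and the p-values measure the spread between these libraries.

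Splicing removes introns from pre-mRNA. SR proteins carry RNA recognition motifs and a domain rich in arginine and serine, bind enhancer sequences in exons and help the spliceosome to recognize the neighbouring splice sites. hnRNP proteins coat nascent RNA, and several of them silence exons or splice sites, so that the balance between both groups sets which exons are kept. Many genes of both families hold a conserved poison exon or a retained intron, whose inclusion sends the mRNA to nonsense-mediated decay (NMD) and so limits the amount of the protein. In the annotation used for positions (GENCODE release 44, GRCh38), 37 of the 46 tested members had at least 1 transcript marked for NMD and 37 had at least 1 with a retained intron. These shares were not counted over all genes, and such marks do not by themselves identify a poison exon. The values here are sums over all transcripts of a gene, so the marked forms were not separated.

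Promoters are shown for the 2 members with the lowest and the 2 with the highest mean log2 fold change over the 4 SCFA groups against TN, since members of both ends can then be compared by eye with the composition given for the rest. Each covers 250 bases before to 50 bases after the start site in RefSeq (GRCh38.p14), 5′ to 3′ on the strand of the gene. Capitals mark matches on either strand. The motif GGGCGG is called a GC box here. The letters of the CCAAT box are its name. An ETS core is written CCGGAAG. Neighbouring GC boxes may overlap. PTBP2 lies on the plus strand at chr1:96722388-96722687, U2AF2 on the plus strand at chr19:55654785-55655084, CLK4 on the minus strand at chr5:178627001-178627300 and HNRNPLL on the minus strand at chr2:38602879-38603178.
PTBP2: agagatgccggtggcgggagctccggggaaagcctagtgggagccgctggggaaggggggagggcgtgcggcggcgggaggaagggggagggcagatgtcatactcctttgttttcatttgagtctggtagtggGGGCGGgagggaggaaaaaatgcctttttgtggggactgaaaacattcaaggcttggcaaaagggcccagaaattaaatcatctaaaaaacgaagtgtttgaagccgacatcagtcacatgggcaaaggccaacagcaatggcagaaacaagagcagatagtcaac
U2AF2: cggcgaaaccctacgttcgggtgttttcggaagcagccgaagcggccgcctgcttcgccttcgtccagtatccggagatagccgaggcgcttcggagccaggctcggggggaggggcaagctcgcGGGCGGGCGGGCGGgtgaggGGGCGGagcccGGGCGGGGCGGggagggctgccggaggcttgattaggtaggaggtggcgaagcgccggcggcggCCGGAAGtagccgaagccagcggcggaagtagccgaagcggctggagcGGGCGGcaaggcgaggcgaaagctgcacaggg
CLK4: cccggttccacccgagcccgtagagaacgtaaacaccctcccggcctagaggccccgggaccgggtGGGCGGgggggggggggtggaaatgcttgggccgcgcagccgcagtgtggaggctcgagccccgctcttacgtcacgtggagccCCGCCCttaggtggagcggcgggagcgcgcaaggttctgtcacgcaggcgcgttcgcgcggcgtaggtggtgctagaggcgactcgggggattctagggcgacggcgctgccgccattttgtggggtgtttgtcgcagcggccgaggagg
HNRNPLL: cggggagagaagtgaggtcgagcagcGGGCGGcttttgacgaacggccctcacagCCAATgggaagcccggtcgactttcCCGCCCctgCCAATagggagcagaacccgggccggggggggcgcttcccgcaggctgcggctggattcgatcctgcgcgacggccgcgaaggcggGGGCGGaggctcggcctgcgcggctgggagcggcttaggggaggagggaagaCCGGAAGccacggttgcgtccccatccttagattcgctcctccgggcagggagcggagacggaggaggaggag

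The promoters of PTBP2 and U2AF2, the members with the largest falls, were not alike: that of PTBP2 had a GC content of 54.0% and 11 CpG dinucleotides, and that of U2AF2 72.3% and 40. Those of CLK4 (70.7%, 36 CpG) and HNRNPLL (70.3%, 33 CpG) were close to U2AF2. For 42 of the 46 tested members a promoter was matched, with a median GC content of 65.7% and a median of 31.0 CpG, against 58.3% and 14.0 over all 27305 promoters. A GC box was present in 71.4% of the member promoters and 44.6% of all, a CCAAT box in 38.1% and 35.7%, an ETS core in 14.3% and 10.7%, and a TATA box (TATAAA) in 11.9% and 12%. An NRF1 core (GCGC, any 2 bases, then GCGC) was present in 31.0% and 8.8%. A GC box was found in 15 of 22 promoters of members lower in all 4 SCFA groups and in 10 of 15 of members called in none of them. Such matches are a description of the letters in this window only.

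The expected counts summed to between 27269986 and 33851130 per library. Levels are given as CPM, counts divided by the library total after scaling with TMM factors, which ranged from 0.913 to 1.06. Of the markers of HK2 cells and of other cells, all 8 epithelial genes were over 1 CPM in at least 1 library. CDH1 and PAX2 were so only in SCFA libraries, with means of 0.267 and 0.122 CPM in Ctrl and 0.109 and 0.127 in TN. The summed level of the list was between 1604 and 2573 CPM in every library, most of it KRT8 and KRT18. Within that list KRT18 was at 355 CPM in TN and 723, 720.1, 565 and 614 in PRTN, BUTN, TNPR and TNBU, and PAX8, a kidney transcription factor, at 403 and 158, 151, 149 and 131. KRT8, KRT19, CDH1 and PAX2 were higher too, KRT19 at 4.53 and 93.5, 119, 82.4 and 113, and CDH1 at 13.8, 14.1, 9.94 and 10.3 in the SCFA groups. EPCAM was lower, at 57.1 and 19.7, 22.1, 15.3 and 17.7, and KRT7 differed little, at 100 and 96.9, 98.3, 93.4 and 102. Of 8 proximal tubule transport genes, 5 were over 1 CPM in at least 1 library, SLC22A6 had no count, and their sum was 226.6 in Ctrl, 198 in TN and 78.0 to 95.04 in the SCFA groups. Most of that sum was GGT1, at 194 CPM in TN and 64, 72.4, 63.9 and 70.8 in the SCFA groups, whereas ANPEP, AQP1, CUBN and LRP2, with group means of at most 1.28 CPM in TN, rose in all 4. SLC5A2 went both ways, at 2.30 CPM in TN and 1.77, 1.63, 3.47 and 2.83 in the SCFA groups. The immune list summed to between 28.0 and 53.0 CPM, most of it CD68, with PTPRC at most at 0.152 CPM. The endothelial list summed to 0.218 CPM in TN and 2.32, 3.28, 3.03 and 3.63 in the SCFA groups, and to at most 3.64 in any library. The sum of the 5 fibroblast genes was 53.7 CPM in TN and between 214 and 249 in the SCFA groups, mostly COL1A1. The part of these shifts in the results below was not tested. The libraries of TNPR and TNBU differed most between replicates.

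On the scale of CPM per kilobase of the canonical transcript, HNRNPA2B1 was the most abundant member in TN at 416.7, followed by HNRNPK at 352.5, HNRNPA1 at 315.9, HNRNPC at 233.9 and HNRNPH1 at 225.3. SRSF2, at 187, and SRSF9, at 168.1, led the SR proteins on this scale. CLK4 (3.83), SRSF8 (3.18) and HNRNPA1L2 were the lowest. The members together took 1.30% ± 0.005 (SD, n = 2) of all counts in Ctrl, 1.33% ± 0.046 in TN, and 0.910% ± 0.001, 0.989% ± 0.023, 0.862% ± 0.032 and 0.893% ± 0.032 in the PRTN, BUTN, TNPR and TNBU pairs. Each SCFA library was below each of the 4 Ctrl and TN libraries in this share. Such shares are relative to the other mRNA of the same library, and no spike-in was used.

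The first comparison asked what TNF-α alone did to these genes. No member was called in TN vs Ctrl, where a call by limma-voom needs more than a 1.5-fold difference together with an adjusted p under 0.05, and over all tested genes 0.764% were called up and 0.534% down. edgeR and DESeq2 called 0 members as well. At an unadjusted p under 0.05, limma-voom gave 10 members higher and 1 lower in TN, and 4140 of all 24342 genes in either direction. The median log2 fold change of the members was 0.08, against -0.01 for all genes. SRSF12, a close relative of SRSF10, was the member with the largest difference. It was at 12.8 and 13.7 CPM in Ctrl and 20.7 and 18.4 in TN, and the libraries did not overlap. The log2 fold change was 0.56 (SE 0.11; adjusted p = 0.0131), just under the fold threshold. HNRNPC (log2 fold change 0.20; adjusted p = 0.033) and HNRNPU (0.18; adjusted p = 0.0498) also had an adjusted p under 0.05 with small differences. Without TN replicate 2, SRSF12 passed both thresholds (0.65; adjusted p = 0.0351), and without Ctrl replicate 1 its adjusted p was 0.152. Leaving out any 1 of the 4 libraries raised the adjusted p of HNRNPC and of HNRNPU to at least 0.112.

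The following comparisons asked what the SCFAs did to the TNF-α-treated cells. Of the 46 tested members, 23 fell in all 4 SCFA groups, and no member was called up. How many of all genes fell in all 4 groups was not counted, so the 23 has no background beside it. In PRTN vs TN 27 of 46 members fell, against a background of 16.7% of all genes called down and 23.9% called up. In BUTN vs TN 23 fell (background 14.8% down and 23.1% up), in TNPR vs TN 29 fell (16.9% down and 24.9% up), and in TNBU vs TN 28 fell (16.5% down and 25% up). These are 58.7%, 50%, 63% and 60.9% of the tested members. The 4 comparisons share the TN libraries.

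The median log2 fold change of the members was -0.72, -0.59, -0.78 and -0.77 for PRTN, BUTN, TNPR and TNBU, the order used for all values below, against 0.09, 0.08, 0.12 and 0.09 for all genes. Among the 10194 genes with a mean of at least 10 CPM, which hold 44 of the members, 23.2%, 21%, 24.8% and 24.7% were called down. At a fold change over 2, 9, 6, 14 and 11 members fell, against 9.17%, 7.44%, 9.41% and 8.79% of all genes. For the direction up, the count of 0 called was the same with edgeR and DESeq2, and at an unadjusted p under 0.05 limma-voom gave 1 member higher in each comparison, HNRNPLL. In either direction 43, 43, 43 and 44 members passed that p, and 14781, 14494, 15041 and 14939 of all 24342 genes. With scaling to library size alone, which moved the median of all genes up by 0.153 to 0.196, 22, 12, 23 and 22 members fell and 1 rose (HNRNPLL in PRTN), where 12.8%, 10.9%, 12.9% and 11.7% of all genes were called down and 27.9%, 27%, 29.7% and 30.1% up. The median of the members minus that of all genes was -0.81, -0.67, -0.89 and -0.86. Scaling moves all genes of a library alike, so this difference could not change with it and is no test of the scaling.

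**Figure D1:**
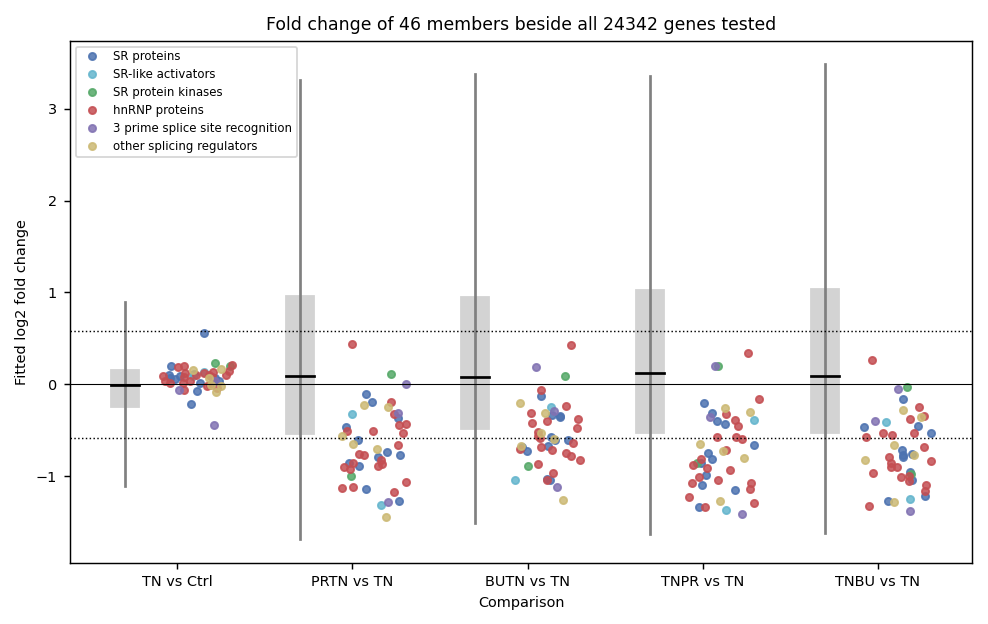
Fitted log2 fold change (vertical axis) of the 46 tested members, as points coloured by class, beside all 24342 tested genes, drawn as a gray box (25th to 75th percentile), a black line (median) and a whisker (5th to 95th percentile), for 5 comparisons. Dotted lines mark a fold change of 1.5. In TN vs Ctrl the members lie between -0.44 and 0.56, with a median of 0.08. In the 4 SCFA comparisons most points lie below 0, with medians of -0.72, -0.59, -0.78 and -0.77.

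Across the 4 SCFA groups, 23 members fell in every one, 6 fell in 1 to 3 groups and 17 were called in none. These patterns were not counted over all genes. The 23 were SRSF1, SRSF3, SRSF4, SRSF5, SRSF6, SRSF8, SRSF12, TRA2A, CLK1, HNRNPA2B1, HNRNPAB, HNRNPC, HNRNPD, HNRNPDL, HNRNPH1, HNRNPH3, HNRNPK, HNRNPL, HNRNPM, U2AF2, PTBP2, MBNL1 and CELF1. With scaling to library size alone 12 of these 23 fell in every group, and SRSF1, SRSF3, SRSF4, SRSF5, SRSF8, HNRNPA2B1, HNRNPD, HNRNPDL, HNRNPK, MBNL1 and CELF1 lost at least 1 call. At a fold change over 2, 6 fell in every group. With DESeq2, 22 of the 23 did, without CELF1, and with RLE factors 21, without CELF1 and SRSF8. Those called in part of the groups were SRSF7, HNRNPA1, HNRNPA3, HNRNPF, HNRNPUL1 and PTBP1. For 41 of the 46 members all 8 SCFA libraries were below all 4 Ctrl and TN libraries, and for 1, HNRNPLL, all were above, where 23.4% of all tested genes were below and 27.6% above in this way. The overlapping members were CLK4, HNRNPA0, HNRNPA1L2 and U2AF1.

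**Figure D2:**
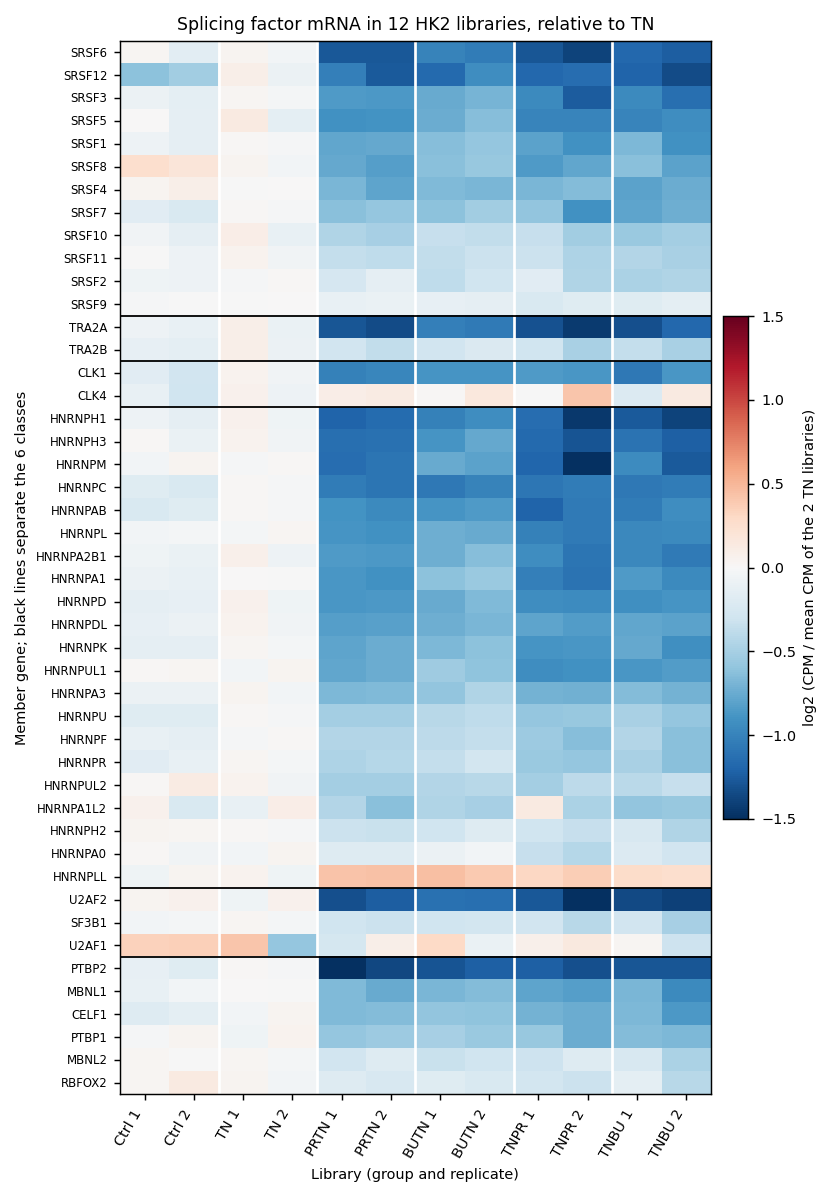
Level of each tested member (rows, in 6 classes divided by black lines: SR proteins, SR-like activators, SR protein kinases, hnRNP proteins, 3′ splice site recognition, other splicing regulators) in each of the 12 libraries (columns), as log2 of the CPM over the mean CPM of the 2 TN libraries. Blue is lower and red higher than TN. The Ctrl and TN columns are mostly pale, the 8 SCFA columns are mostly blue, and HNRNPLL is red in all 8.

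Among the SR proteins, 8, 7, 8 and 8 of 12 fell, with class medians of -0.76, -0.60, -0.78 and -0.77. SRSF6 (chr20:43457893-43466046) had the largest falls among the abundant SR proteins. It was at 304 and 268 CPM in Ctrl and 308 and 289 in TN, and at 124 and 124, 149 and 144, 123 and 114, and 132 and 126 in the PRTN, BUTN, TNPR and TNBU pairs. The SCFA libraries lay far below the other 4 and close to each other. The log2 fold changes against TN were -1.27, -1.03, -1.34 and -1.21 (SE 0.068 to 0.07; adjusted p at most 1.07e-07). SRSF12 (chr6:89095959-89118071), whose level was higher in TN than in Ctrl, was at 9.64 and 8.15, 8.73 and 10.3, 8.68 and 8.86, and 8.51 and 7.70 in the PRTN, BUTN, TNPR and TNBU pairs. These values are under both Ctrl libraries too. Its log2 fold changes against TN were -1.13, -1.04, -1.15 and -1.27 (SE 0.11 to 0.12; adjusted p at most 6.4e-06).

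SRSF3 (chr6:36594353-36605600), the smallest SR protein, which also takes part in mRNA export, was at 378 and 364 CPM in Ctrl, 412 and 393 in TN, and 223 and 222, 238 and 248, 207 and 169.6, and 208 and 184 in the PRTN, BUTN, TNPR and TNBU pairs. No SCFA library reached the lowest of the other 4, and the TNPR pair was the widest. The log2 fold changes were -0.85, -0.73, -1.10 and -1.04 (SE 0.083 to 0.084; adjusted p at most 9.79e-06). SRSF1 (chr17:58000919-58007346), the prototype of the family, was at 305 and 293 CPM in Ctrl, 324 and 317 in TN, and 187 and 188, 207 and 214, 184 and 171, and 201 and 171 in the PRTN, BUTN, TNPR and TNBU pairs. It fell in all 4 SCFA groups, at -0.77, -0.61, -0.85 and -0.79 on the log2 scale against TN (SE 0.07 to 0.071; adjusted p at most 1.14e-05). SRSF5 (chr14:69726900-69772005), which binds purine-rich exonic enhancers, was at 116 and 105 CPM in Ctrl, 126 and 104 in TN, and 61.4 and 62, 68.7 and 73.7, 58 and 57.7, and 57.9 and 60.3 in the PRTN, BUTN, TNPR and TNBU pairs. The TN libraries differed from each other, but both were above every SCFA library. Against TN the log2 fold changes were -0.89, -0.68, -0.98 and -0.95 (SE 0.086 to 0.088; adjusted p at most 2.36e-05); without TN replicate 1 that of BUTN was -0.57 and no longer past the fold threshold.

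SRSF4 and SRSF8 also fell in all 4 groups, with log2 fold changes of -0.81 to -0.60, and SRSF7, an SR protein with a zinc knuckle, fell in PRTN, TNPR and TNBU. With scaling to library size alone SRSF4 and SRSF7 lost all their calls (-0.58 to -0.45), SRSF8 those of BUTN and TNBU (-0.45 and -0.52), and in BUTN the calls of SRSF1 (-0.46), SRSF3 (-0.57) and SRSF5 (-0.53) were lost. The other SR proteins were SRSF2, SRSF9, SRSF10 and SRSF11, which were called in no group, with values of -0.53 to -0.10. SRSF9 differed least: its 2 TN libraries were both at 194 CPM and the 8 SCFA libraries between 165 and 181. SRSF2, which stays in the nucleus and marks nuclear speckles, was at 349.6 and 357 CPM in TN and between 255 and 322 in the SCFA libraries.

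The class of SR-like activators and that of SR protein kinases each split into a member that fell in all 4 groups and one that was called in none. TRA2A (chr7:23504780-23532041) and TRA2B (chr3:185914558-185938103) are paralogs that bind GAA-rich exonic enhancers. TRA2A was at 76.5 and 74.3 CPM in Ctrl, 85.7 and 75.2 in TN, and 33 and 31.6, 39.6 and 38.7, 32.6 and 29.8, and 32.3 and 35.4 in the PRTN, BUTN, TNPR and TNBU pairs. The SCFA libraries were well below the others, and the log2 fold changes were -1.31, -1.04, -1.36 and -1.25 (SE 0.078 to 0.08; adjusted p at most 2.96e-07). TRA2B was at 230.03 and 227 CPM in Ctrl, 267 and 236 in TN, and 206 and 195, 206 and 217, 204 and 179, and 197 and 180.03 in the PRTN, BUTN, TNPR and TNBU pairs. It was lower in each SCFA library than in the other 4, but by less than 1.5-fold, at -0.33, -0.25, -0.39 and -0.42 on the log2 scale (SE 0.077 to 0.078; adjusted p at most 0.015). The difference between TRA2A and TRA2B was not tested.

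CLK1 and CLK4 are nuclear kinases that phosphorylate the arginine-serine domains of SR proteins and release them from speckles. CLK1 (chr2:200853009-200864691) was at 37.6 and 34.6 CPM in Ctrl, 43.9 and 40.9 in TN, and 21 and 21.5, 22.9 and 22.9, 23.6 and 23.1, and 20.1 and 23.1 in the PRTN, BUTN, TNPR and TNBU pairs. All SCFA libraries lay within a narrow range below the other 4. On the log2 scale the changes against TN were -0.99, -0.89, -0.86 and -0.97 (SE 0.08 to 0.082; adjusted p at most 1.38e-06). CLK4 (chr5:178602664-178630615) was at 8.87 and 7.76 CPM in Ctrl, 10.1 and 9.12 in TN, and 10.3 and 10.4, 9.73 and 10.7, 9.54 and 12.8, and 8.30 and 10.5 in the PRTN, BUTN, TNPR and TNBU pairs. Both PRTN libraries were just above both TN libraries, and the other SCFA pairs overlapped with TN. The log2 fold changes of 0.11, 0.09, 0.20 and -0.03 (SE 0.15 to 0.16) did not pass the test, with adjusted p between 0.283 and 0.886.

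**Figure D3:**
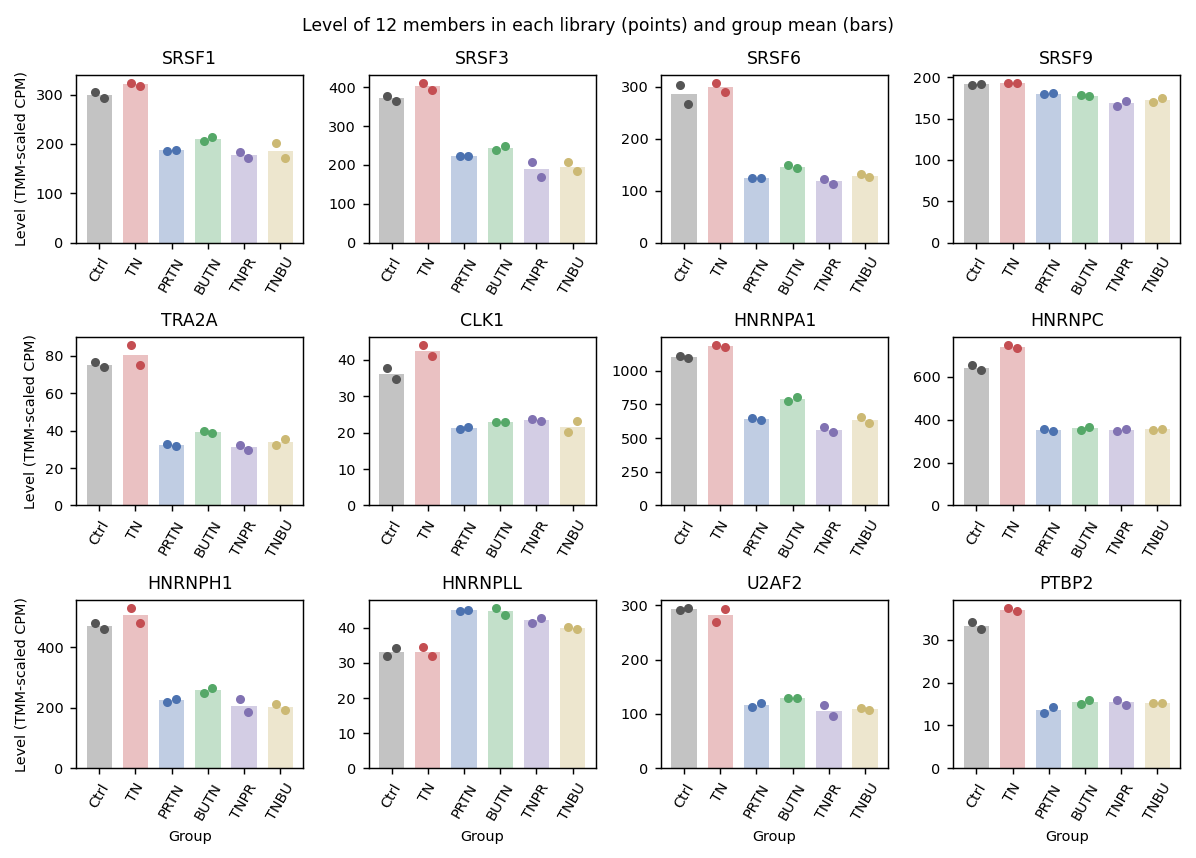
TMM-scaled CPM (vertical axis, from 0) of 12 members in each of the 6 groups. Points are the 2 libraries of a group and bars their mean. For 10 of the 12 members the points of the 4 SCFA groups lie well below those of Ctrl and TN, SRSF9 differs little, and HNRNPLL is higher in the SCFA groups.

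Of the 21 tested hnRNP genes, 13, 10, 14 and 13 fell, with class medians of -0.77, -0.58, -0.88 and -0.84. The most abundant ones are given first. HNRNPA1 (chr12:54280193-54287088) silences exons by binding UAGG-type motifs, and HNRNPA2B1 (chr7:26171151-26201529) is its close relative. HNRNPA1 was at 1112 and 1093 CPM in Ctrl, 1187 and 1178 in TN, and 647 and 632, 775 and 802, 579.5 and 547, and 656 and 612 in the PRTN, BUTN, TNPR and TNBU pairs. The BUTN libraries were the highest of the SCFA groups and the TNPR libraries the lowest. Log2 fold changes against TN were -0.89, -0.58, -1.07 and -0.90 (SE 0.049 to 0.05; adjusted p at most 7.39e-07), and that of BUTN was just short of the fold threshold, which it passed in 8 of the alternative fits. The 75 annotated HNRNPA1 pseudogene rows held 2.90% as many counts as the gene itself. HNRNPA2B1 was at 1450.3 and 1415 CPM in Ctrl, 1589 and 1434 in TN, and 837 and 833, 911 and 972, 792 and 709, and 776 and 725 in the PRTN, BUTN, TNPR and TNBU pairs. It fell in all 4 groups, with log2 fold changes of -0.85, -0.68, -1.01 and -1.01 (SE 0.065 to 0.066; adjusted p at most 2.2e-06).

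HNRNPC (chr14:21209136-21269494) binds uridine tracts and keeps cryptic exons, many of them within Alu elements, from being spliced in. It was at 655 and 632 CPM in Ctrl, 748 and 733 in TN, and 359 and 347, 353 and 368, 349 and 357, and 353 and 359 in the PRTN, BUTN, TNPR and TNBU pairs. The 8 SCFA libraries were nearly the same, between 347 and 369 CPM. The log2 fold changes were -1.07, -1.04, -1.07 and -1.06 (SE 0.047 to 0.048; adjusted p at most 5.99e-09). HNRNPK (chr9:83968083-83980631), a protein with KH domains that binds cytidine-rich RNA, was at 925 and 925 CPM in Ctrl, 1037 and 999.9 in TN, and 588 and 607, 638 and 667, 549 and 555, and 600.5 and 539 in the PRTN, BUTN, TNPR and TNBU pairs. It fell in each SCFA group, with log2 fold changes of -0.77, -0.64, -0.88 and -0.84 (SE 0.054 to 0.055; adjusted p at most 7.83e-07). In BUTN the calls of HNRNPA2B1 and HNRNPK were lost with scaling to library size alone (-0.53 and -0.49). HNRNPU (chr1:244840638-244864560), a nuclear scaffold protein, was at 905 and 904 CPM in Ctrl, 1040.2 and 1014 in TN, and 724 and 719, 769 and 787, 686 and 693, and 735 and 687 in the PRTN, BUTN, TNPR and TNBU pairs. Its SCFA libraries did not overlap with the others, but the log2 fold changes of -0.51, -0.40, -0.58 and -0.53 (SE 0.046; adjusted p at most 1.1e-05) stayed below the fold threshold. In TNPR it was at the threshold, and 7 alternative fits passed it.

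HNRNPH1 (chr5:179614178-179634784) binds runs of guanosine and was among the members with the largest falls. It was at 479.6 and 461 CPM in Ctrl, 529 and 481 in TN, and 219.8 and 228, 249.9 and 266, 228 and 185, and 211 and 193 in the PRTN, BUTN, TNPR and TNBU pairs. Every SCFA library was at most at 266 CPM and every other one at least at 461. Against TN the log2 fold changes were -1.17, -0.97, -1.29 and -1.32 (SE 0.085 to 0.087; adjusted p at most 1.09e-06). Of its paralogs, HNRNPH3 fell in all 4 groups (-1.13, -0.82, -1.23 and -1.16), HNRNPF passed the fold threshold narrowly in TNPR and not in the other 3 (-0.44, -0.38, -0.59 and -0.53), and HNRNPH2 was called in none (-0.33, -0.24, -0.32 and -0.35). The call of HNRNPF was lost with scaling to library size alone (-0.42), and differences between these paralogs were not tested. HNRNPM (chr19:8444767-8489114), which binds GU-rich sequences, was at 334 and 353 CPM in Ctrl, 339 and 347 in TN, and 155 and 161, 203 and 197, 150.4 and 122, and 179 and 143 in the PRTN, BUTN, TNPR and TNBU pairs. The TNPR and TNBU pairs were wide, and the groups still did not overlap with TN. On the log2 scale the changes against TN were -1.12, -0.78, -1.34 and -1.10 (SE 0.098 to 0.1; adjusted p at most 2.34e-05).

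HNRNPL and HNRNPLL are paralogs that bind CA-rich RNA, and the difference between them was not tested. HNRNPL fell in all 4 groups, with log2 fold changes of -0.90, -0.74, -1.04 and -0.96 (SE 0.049; adjusted p at most 9.11e-08). HNRNPLL (chr2:38561969-38603586), named here after its values were seen, was at 31.9 and 34.1 CPM in Ctrl, 34.6 and 31.9 in TN, and 44.8 and 45.1, 45.6 and 43.7, 41.3 and 42.9, and 40.3 and 39.6 in the PRTN, BUTN, TNPR and TNBU pairs. All 8 SCFA libraries were above the other 4. Log2 fold changes against TN were 0.44, 0.43, 0.34 and 0.27 (SE 0.068 to 0.07; adjusted p at most 0.0055), below the fold threshold in each group, and that of PRTN passed it with scaling to library size alone (0.59). HNRNPAB, HNRNPD and HNRNPDL, which bind AU-rich RNA, fell in all 4 groups, with values of -1.14 to -0.71. HNRNPA3 and HNRNPUL1 fell in PRTN, TNPR and TNBU. Scaling to library size alone ended the 3 calls of HNRNPA3 (-0.54 to -0.48) and those of HNRNPD (-0.55) and HNRNPDL (-0.56) in BUTN. HNRNPA0, HNRNPR and HNRNPUL2 were called in no group, with values of -0.57 to -0.06. The retrogene HNRNPA1L2 was at 2.15 to 3.64 CPM over all libraries, was called in no group, and is nearly identical in sequence to HNRNPA1, so its counts are uncertain.

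The 3′ splice sites are recognized by U2AF2, which binds the polypyrimidine tract, by U2AF1, which reads the AG dinucleotide, and by SF3B1, the U2 snRNP subunit at the branch point. U2AF2 (chr19:55654146-55674716) was at 290.2 and 294 CPM in Ctrl, 269 and 293 in TN, and 113 and 119, 129.7 and 129, 116 and 95.9, and 109.9 and 106 in the PRTN, BUTN, TNPR and TNBU pairs. All SCFA libraries were at most at 129.7 CPM and all others at least at 269. The log2 fold changes were -1.28, -1.12, -1.41 and -1.38 (SE 0.078 to 0.079; adjusted p at most 1.49e-07), the largest fall of any member in TNPR and TNBU. SF3B1 (chr2:197388515-197435079) was at 482 and 486 CPM in Ctrl, 503 and 485 in TN, and 401 and 395, 401 and 409, 407 and 369, and 405 and 349 in the PRTN, BUTN, TNPR and TNBU pairs. The SCFA libraries were lower without overlap, by less than 1.5-fold, at -0.31, -0.29, -0.35 and -0.39 on the log2 scale (SE 0.068 to 0.069; adjusted p at most 0.00307).

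The counts of U2AF1 (chr21:43092956-43107570) are uncertain, because the annotation holds a near-identical copy, U2AF1L5, to which most reads were assigned. U2AF1 was at 16 and 16.1 CPM in Ctrl, 16.8 and 8.42 in TN, and 10.5 and 13.4, 15.5 and 11.8, 13.3 and 14, and 12.8 and 10.2 in the PRTN, BUTN, TNPR and TNBU pairs, whereas U2AF1L5 was at 61.2 to 101 CPM. The 2 TN libraries differed by 0.955 on the log2 scale in U2AF1, and the log2 fold changes of 0.00, 0.18, 0.20 and -0.05 (SE 0.24 to 0.26) did not pass the test, with adjusted p of at least 0.507. After the values were seen, both rows were summed. The sum was 118 and 106 CPM in TN and between 75.1 and 92.0 CPM in the SCFA libraries, below all other libraries. Its log2 fold changes were -0.44, -0.32, -0.55 and -0.49 (SE 0.064 to 0.065; adjusted p at most 0.001), under the fold threshold in each group.

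The remaining 6 members bind introns or exons of particular target sets, and 3, 3, 4 and 4 of them fell. PTBP1 (chr19:797075-812327) represses exons by binding pyrimidine tracts, and one of its known targets is the mRNA of its paralog PTBP2, best known from neurons, whose exon skipping leads to decay. PTBP2 (chr1:96721665-96823738) was at 34 and 32.6 CPM in Ctrl, 37.4 and 36.7 in TN, and 12.9 and 14.4, 15.1 and 15.9, 15.9 and 14.9, and 15.2 and 15.3 in the PRTN, BUTN, TNPR and TNBU pairs. These were the largest falls of any member in PRTN and BUTN, with log2 fold changes of -1.45, -1.26, -1.27 and -1.28 over the 4 groups (SE 0.077 to 0.079; adjusted p at most 5.67e-08). PTBP1 was at 421 and 440.1 CPM in Ctrl, 409 and 444 in TN, and 286 and 292, 301 and 289, 288 and 255, and 272 and 268 in the PRTN, BUTN, TNPR and TNBU pairs. It was lower in all 8 SCFA libraries and passed the threshold in TNPR and TNBU, with log2 fold changes of -0.56, -0.53, -0.65 and -0.66 (SE 0.064 to 0.065; adjusted p at most 1.72e-05). The call in TNPR was lost without TNPR replicate 2 (-0.56), and both calls were lost with scaling to library size alone (-0.48 and -0.46). In PRTN and BUTN it passed the threshold without TN replicate 1 (-0.65 and -0.62).

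MBNL1 (chr3:152243828-152465780) and MBNL2 (chr13:97221434-97394120) bind clustered YGCY motifs, and CELF1 binds GU-rich RNA and often acts against them. MBNL1 was at 121 and 128 CPM in Ctrl, 132 and 130.4 in TN, and 82.9 and 77.7, 81.5 and 83.7, 75.7 and 74.2, and 81.6 and 67.5 in the PRTN, BUTN, TNPR and TNBU pairs. It fell in all 4 groups, with log2 fold changes of -0.71, -0.67, -0.81 and -0.82 (SE 0.078 to 0.079; adjusted p at most 1.25e-05), and lost its calls in PRTN (-0.55) and BUTN (-0.51) with scaling to library size alone. MBNL2 was at 44.3 and 43.3 CPM in Ctrl, 44.5 and 42.5 in TN, and 35.5 and 38.1, 34.5 and 35.3, 34.9 and 37.9, and 36.9 and 31.3 in the PRTN, BUTN, TNPR and TNBU pairs. Its SCFA libraries were lower without overlap, and its log2 fold changes of -0.24, -0.31, -0.26 and -0.35 (SE 0.082 to 0.084; adjusted p at most 0.0242) were under the fold threshold. CELF1 fell in all 4 groups, with log2 fold changes of -0.65, -0.60, -0.73 and -0.77 (SE 0.065 to 0.066, adjusted p at most 6.5e-06). It fell in none of them with scaling to library size alone (-0.57 to -0.45). With DESeq2 or RLE factors it no longer fell in every group. RBFOX2 (chr22:35738736-36028824), which binds UGCAUG in introns next to its target exons, was at 125 and 133 CPM in Ctrl, 125 and 118 in TN, and 106 and 103, 107 and 104, 101 and 97.1, and 110.04 and 91.4 in the PRTN, BUTN, TNPR and TNBU pairs. It was lower, at -0.22, -0.20, -0.30 and -0.28 on the log2 scale (SE 0.08 to 0.081; adjusted p at most 0.0459), which is not a call.

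In bulk RNA, fewer cells with a high level and a lower level in each cell cannot be told apart. The same holds for all values above and below.

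The next comparisons asked whether propionate and butyrate, and both timings, differed. Propionate was given at 15 mM and butyrate at 3 mM, so a difference between them cannot be assigned to the fatty acid rather than the dose. No member was called in PRTN vs BUTN (over all genes 0.0411% were called up and 0.127% down) or in TNPR vs TNBU (0% up and 0.00822% down), and edgeR and DESeq2 called 0 as well. At an unadjusted p under 0.05, 17 members were lower in PRTN than in BUTN and 3 lower in TNPR than in TNBU, and none was higher, by limma-voom. Over all 24342 genes, 3418 and 2096 passed that p in either direction. The log2 difference was negative for 41 and 26 of the 46 members, and for 12838 and 12180 of all genes. Member medians were -0.11 and -0.02, against -0.01 and -0.0002 for all genes. DESeq2 gave 5 and 0 members an adjusted p under 0.05 at any fold, which was not counted over all genes. The 95% confidence interval of the log2 difference lay within a 1.5-fold change for 45 of 46 members before TNF-α and 44 after it, so larger differences were outside the interval for these. HNRNPA1 was the member with an adjusted p under 0.05 by limma-voom. It was lower in PRTN than in BUTN, at -0.30 on the log2 scale (95% CI -0.41 to -0.19; adjusted p = 0.0281), with the PRTN libraries at 647 and 632 CPM and the BUTN libraries at 775 and 802. Without any 1 of these 4 libraries its adjusted p was between 0.237 and 0.298. After TNF-α the difference was -0.17 (95% CI -0.28 to -0.06; adjusted p = 0.395).

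For timing, no member was called in TNPR vs PRTN (0.0534% of all genes up and 0.107% down) or in TNBU vs BUTN (0.0945% up and 0.173% down), with 0 by edgeR and DESeq2 too. At an unadjusted p under 0.05, 8 members were lower in TNPR than in PRTN and 24 lower in TNBU than in BUTN. Over all 24342 genes, 2729 and 3515 passed that p in either direction. The log2 difference was negative for 36 and 45 of the 46 members, and for 12121 and 12393 of all genes. Member medians were -0.07 and -0.16, against 0.001 and -0.006 for all genes. DESeq2 gave 1 and 10 members an adjusted p under 0.05 at any fold, which was not counted over all genes. Intervals lay within a 1.5-fold change for 44 of 46 members in each. HNRNPA1, HNRNPUL1 and HNRNPA2B1 were lower in TNBU than in BUTN with an adjusted p under 0.05 by limma-voom. With only the groups compared, their adjusted p by limma-voom was 0.292, 0.307 and 0.29. With scaling to library size alone it was 0.0282, 0.0619 and 0.0793. For HNRNPA1 the log2 difference was -0.31 (95% CI -0.42 to -0.21; adjusted p = 0.0156), for HNRNPA2B1 -0.33 (95% CI -0.47 to -0.18; adjusted p = 0.0477), and for HNRNPUL1 -0.29 (95% CI -0.41 to -0.18; adjusted p = 0.033). Both timing comparisons differ in the order of SCFA and TNF-α and in the time kept after TNF-α, which cannot be told apart. The difference of timing effects between the SCFAs gave 0 calls among members and 0% of all genes in either direction. HNRNPH3 was the only member with an unadjusted p under 0.05 there, at 0.24 on the log2 scale, and it did not pass after adjustment. Over all 24342 genes, 935 passed that unadjusted p.

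**Figure D4:**
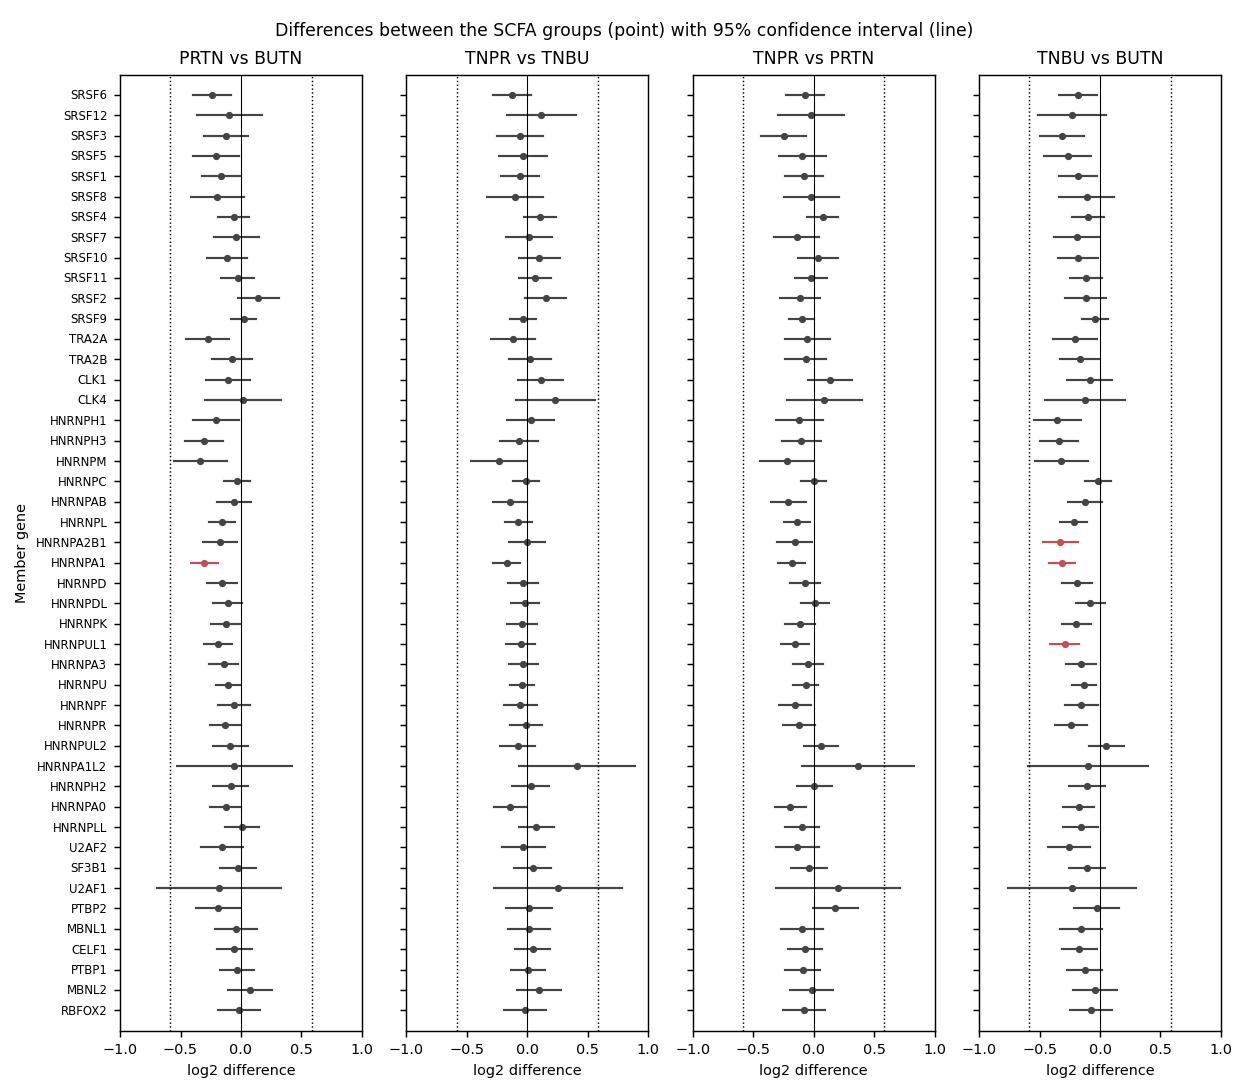
Log2 difference (horizontal axis) between SCFA groups for each of the 46 tested members (rows), with points for the fitted value and lines for the 95% confidence interval, in 4 comparisons. Dotted lines mark a 1.5-fold difference and red marks an adjusted p under 0.05. Most intervals lie between the dotted lines; HNRNPA1 is red in PRTN vs BUTN, and HNRNPA1, HNRNPUL1 and HNRNPA2B1 in TNBU vs BUTN.

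Other parts of the splicing machinery were read from lists of genes chosen by function. None of their genes was called in TN vs Ctrl. Of 15 proteins of the U4/U6.U5 tri-snRNP, the catalytic core of the spliceosome, 0, 1, 0 and 1 fell and 0 rose, the 1 being SNRNP40, and the list medians were -0.18, -0.20, -0.17 and -0.23. Of 6 U1 snRNP proteins, which recognize the 5′ splice site, 0, 0, 1 and 1 fell, in each case LUC7L2. Of the 7 Sm core proteins 1 fell in each group, SNRPD1, at 81.1 CPM in TN and 45.9, 51.6, 43.2 and 47.1 in the SCFA groups. These shares were near or below the 16.7%, 14.8%, 16.9% and 16.5% of all genes that were called down.

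The U2 snRNP list, which works with U2AF2 and SF3B1, was mixed. Of 14 genes, 4, 3, 5 and 5 (28.6%, 21.4%, 35.7% and 35.7%) fell and 2, 1, 1 and 1 (14.3%, 7.14%, 7.14% and 7.14%) rose. Over all genes 14.8% to 16.9% were called down and 23.1% to 25% up. SF3B3, a large subunit of the SF3b complex, was at 473 CPM in TN and 231, 259, 223 and 241 in the SCFA groups, with log2 fold changes of -1.03, -0.87, -1.09 and -0.98. U2SURP (-0.89, -0.83, -0.78 and -0.87) and PHF5A (-0.74, -0.62, -0.68 and -0.71) also fell in all 4. The small subunits SF3B5 and SF3B6 went the other way: SF3B5 rose in PRTN, TNPR and TNBU, from 63.6 CPM in TN to 114, 122 and 104, and SF3B6 rose in PRTN and BUTN.

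Among the other kinases of SR proteins, 1, 1, 2 and 2 of 7 (14.3%, 14.3%, 28.6% and 28.6%) fell and 0, 1, 1 and 1 rose. DYRK1A fell in all 4 groups (-0.71, -0.83, -0.90 and -0.93). SRPK1, the main cytoplasmic SR protein kinase, was called in none, at 168 CPM in TN and 133, 127, 128 and 129.6 in the SCFA groups. Of 10 factors of NMD, the decay route of the poison-exon transcripts, 2 fell in each group, SMG8 and SMG9, and none rose. These 2 are 20% of the list, near the 14.8% to 16.9% of all genes called down. SMG8 was at 26.9 CPM in TN and 14.2, 15.4, 13.5 and 13.7 in the SCFA groups. The log2 fold changes of SMG9 were -0.93, -0.83, -0.77 and -0.83. UPF1, the central helicase of NMD, was at 109.7 CPM in TN and 111, 105, 102 and 101 in the SCFA groups and was called in none.

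Of 34 tested further splicing regulators, 14, 13, 14 and 15 (41.2%, 38.2%, 41.2% and 44.1%) fell and 6, 7, 5 and 6 (17.6%, 20.6%, 14.7% and 17.6%) rose. Over all genes 16.7%, 14.8%, 16.9% and 16.5% were called down and 23.9%, 23.1%, 24.9% and 25% up. RBM39, which binds U2AF2, was at 321 CPM in TN and 145, 164, 146 and 143 in the SCFA groups. RBMX, an hnRNP protein by its other name, hnRNP G, was at 396 and 185, 226, 149.9 and 169. MBNL3, the third muscleblind gene, fell furthest, from 11 CPM to 2.33, 2.55, 1.94 and 2.35. The genes that rose in all 4 groups were NOVA2, CELF3, CELF4, CELF5 and RBFOX3, and all were low. NOVA2 had no count in Ctrl and TN, where 3 counts are 0.103 to 0.112 CPM, and was at 3.49, 3.16, 4.10 and 3.68 CPM in the SCFA groups. CELF5 was at 0.0359 CPM in TN and 1.56, 1.96, 1.48 and 1.59. SRRM3 rose in PRTN, BUTN and TNBU, and ESRP1 in BUTN.

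**Figure D5:**
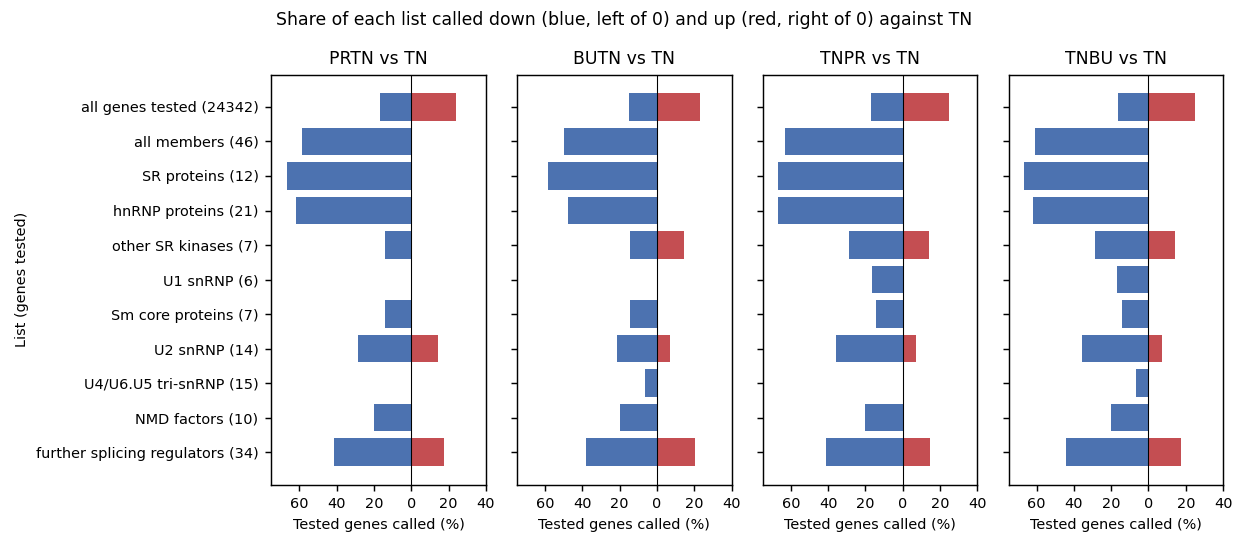
Percentage of tested genes called down (blue, left of 0) and up (red, right of 0) against TN, for all genes, the members, 2 of their classes and 7 other lists, in 4 comparisons. The number of genes tested stands beside each list. The members, the SR proteins and the hnRNP proteins have no red bar and blue bars of 47.6% or more, against 14.8% to 16.9% for all genes.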

How the data were processed

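The authors sequenced stranded mRNA libraries on an Illumina HiSeq, aligned the reads to GRCh38 with STAR (2.6.1a in the submitters' notes) and estimated counts per gene of GENCODE release 26 with RSEM. The deposited values are these expected counts, 1 set per library, with no scaling or filter, of which 19.3% are not whole. The RSEM version and strand setting are not given in the sources used here, so reads of overlapping antisense genes may not have been separated.

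Counts were tested without rounding in limma 3.58.1 (voom) with TMM factors from edgeR 4.0.16 and a mean for each of the 6 groups. Genes were kept where the geometric mean of the count plus 1, minus 1, was at least 1, which removed 33936. P-values were adjusted by Benjamini-Hochberg over all 24342 genes tested. Alternatives used edgeR and DESeq2 1.42.0 on rounded counts, other scaling, filters, fold thresholds and symbols, only the groups compared, a replicate block, and leaving out each library. Deviations of same-numbered libraries correlated from -0.0791 to 0.24 over 15 pairs of groups, 1 of them over 0.1, so the numbers were not used as pairs. The scripts were tested on simulated data in which few genes changed, as many up as down, in a single group. Far more genes were called in the SCFA comparisons, so the simulation does not test the scaling there. Intervals cover the spread between libraries, and limits for a count of 0 (3 counts) cover counting error only.

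The members and lists were chosen with earlier results of these data known. The text gives all members, with values in every library for 20 set beforehand and for the 3 largest rises and falls per comparison with TN or Ctrl among called members of at least 1 CPM, and names others, such as HNRNPLL, as chosen after their values were seen. Promoters come from RefSeq (GRCh38.p14) and positions from GENCODE release 44, to which all 50 members matched.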

Additional observations from a re-analysis of the deposited data

Results flagged for a closer look

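The members listed here differed between groups that had received an SCFA, by a limma-voom test of the difference itself with an adjusted p under 0.05. HNRNPA1 was lower in PRTN than in BUTN, by -0.30 on the log2 scale (adjusted p = 0.0281), and edgeR gave an adjusted p of 0.0445 and DESeq2 1.66e-05. HNRNPA1 was also lower in TNBU than in BUTN, by -0.31 (adjusted p = 0.0156), and its adjusted p was 0.197 and 0.206 without BUTN replicate 1 and 2. HNRNPUL1 was lower in TNBU than in BUTN by -0.29 (adjusted p = 0.033), and without BUTN replicate 1 its adjusted p was 0.389. HNRNPA2B1 was lower in TNBU than in BUTN by -0.33 (adjusted p = 0.0477), and edgeR gave an adjusted p of 0.064. With only TNBU and BUTN fitted by limma-voom, the adjusted p was 0.292 for HNRNPA1, 0.307 for HNRNPUL1 and 0.29 for HNRNPA2B1. All 4 differences were under 1.5-fold, and in each the 2 libraries of one group were below both of the other. Each group holds 2 libraries, too few for a search for a library far from the others.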

How the results depend on the processing

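The counts of members that fell against TN (27, 23, 29 and 28 in PRTN, BUTN, TNPR and TNBU) stayed within 1.5 times under edgeR, DESeq2, RLE factors, other filters, only the groups compared and the literal HNRNP symbols. With the replicate block they were 27, 23, 29 and 28, and it changed no other count of calls. Scaling to library size alone gave 12 for BUTN and 1 rise for PRTN. The 23 members that fell in all 4 groups became 12 with library size alone, 6 at a fold change over 2 and 40 with an adjusted p at any fold, and 23 to 26 without 1 library. A fold change over 2 left 9, 6, 14 and 11. An adjusted p at any fold gave 41, 41, 42 and 43 falls, with 1 rise in each of the 4 groups. Of all 24342 genes, 13729, 13414, 14041 and 13964 passed that adjusted p against TN, rises and falls together. TN vs Ctrl had 3 member rises, where 854 of all genes passed in either direction. PRTN vs BUTN had 1 member difference, against 140 genes, and TNBU vs BUTN had 3, against 190. Falls in all 4 groups, such as the 40, were not counted over all genes at that p. Leaving out 1 library gave 27 to 29, 23 to 26, 27 to 31 and 28 to 31 falls. Counts of rises went from 0 to 1 in TN vs Ctrl (SRSF12 without TN replicate 2) and in BUTN and TNPR (U2AF1 without TN replicate 1), and the other counts stayed at 0.

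Of the named members' fold changes, U2AF1 and CLK4 changed sign, neither called in the fit reported. U2AF1 in PRTN was -0.074 with edgeR, -0.066 with DESeq2, -0.022 without the filter, -0.038 with the replicate block and -0.013 with only the groups compared, and ranged from -0.53 to 0.46 without 1 library. Over the same fits its value ranged from -0.34 to 0.65 in BUTN, -0.33 to 0.67 in TNPR and -0.57 to 0.42 in TNBU, where library size alone gave 0.15. CLK4 ranged from -3.7e-05 to 0.13 in BUTN, -0.0051 to 0.37 in TNPR and -0.20 to 0.10 in TNBU, where library size alone gave 0.16. The cause was not tested. With 2 libraries a group, differences between SCFA groups had a median 95% interval of ± 0.15 on the log2 scale.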
